A study of Homo sapiens with 41 samples.

Results

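Divergent coding promoters, from which 2 protein-coding genes are transcribed in opposite directions, held 291 of the 8720 Elongin A peaks found by CUT&RUN in DLD1 cells, or 3.34%. A peak was counted as a member when its summit lay within 1 kb of a transcription start site (TSS) of a protein-coding gene that had, within 1 kb upstream on the opposite strand, a TSS of another protein-coding gene. All annotated transcripts of these genes were used. The members are compared below with 2004 peaks at one-way coding promoters, where a coding TSS lay within 1 kb of the summit but had no such partner, and with the whole list, in which the other 6425 peaks lay away from coding TSSs. With the canonical transcript of each gene alone, 172 members remained. At the edge of the rule, 6 members had their nearest paired TSS 901 to 1000 bp away, and 11 peaks just outside the rule had it 1001 to 1100 bp away.

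DLD1 is a human colon cancer cell line. The cells mapped here were wild type, received no siRNA and were fixed with formaldehyde. CUT&RUN sequences DNA fragments that a nuclease, tethered through an antibody, cuts free around the bound protein. The main list came from 2 replicates with a goat antibody against Elongin A and 1 goat IgG control, a second list from 1 sample with a mouse antibody and 1 mouse IgG control, and the last from 1 Elongin A ChIP-seq sample and 1 input. Each list was deposited as a single set of peaks with no column per replicate and no read totals, so the depth is unknown and no value below has a replicate error. Intervals are 95% intervals and cover counting error only.

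Elongin A is the transcriptionally active subunit of the Elongin complex, which it forms with the small proteins Elongin B and Elongin C. In reactions with purified proteins the complex speeds RNA polymerase II by shortening its pauses, and with a cullin it also forms a ubiquitin ligase that acts on stalled polymerase. Divergent coding promoters are common in compact vertebrate genomes, usually lie in CpG islands, often lack a TATA box, and commonly serve housekeeping genes of RNA processing, DNA repair and mitochondria. One short stretch of DNA there carries the start sites of both genes, so that a factor bound at it cannot be given to one gene by position alone.

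The DNA between the TSSs is shown for 8 pairs, of which the first 7 had peaks among the 20 with the highest fold enrichment, and H2BC12/H2AC12 was the strongest histone pair. Each is the longest stretch between the TSSs without an annotated exon, from the GRCh37 assembly (hg19), and is written 5′ to 3′ on the plus strand. The minus-strand gene, named first, starts to the left of it, and the plus-strand gene starts to the right. MCRS1/PRPF40B and PKMYT1/PAQR4 are divergent pairs only when transcripts other than the canonical ones are used. Capitals mark matches on either strand to the cores of 9 promoter motifs. These were the GC box GGGCGG, the CCAAT box CCAAT, the ETS core CCGGAAG, the NRF1 core CGCATGCG, the YY1 core AAGATGGCG, the CRE core TGACGTCA, the TATA box TATAAA, the E-box CACGTG and the ZNF143 core ACTACAA. No core contains another, but neighbouring matches can overlap.
CBX5/HNRNPA1 (chr12:54673918-54673976): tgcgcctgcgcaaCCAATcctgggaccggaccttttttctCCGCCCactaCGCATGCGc
MCRS1/PRPF40B (chr12:49961929-49962000): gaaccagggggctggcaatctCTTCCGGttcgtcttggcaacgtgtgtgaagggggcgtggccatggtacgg
NUDCD2/HMMR (chr5:162887109-162887208): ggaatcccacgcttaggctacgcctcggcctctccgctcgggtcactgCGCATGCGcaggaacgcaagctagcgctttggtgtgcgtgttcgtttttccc
TUBD1/RPS6KB1 (chr17:57970307-57970406): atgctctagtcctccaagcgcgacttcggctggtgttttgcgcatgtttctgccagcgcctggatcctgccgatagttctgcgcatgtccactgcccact
SAFB2/SAFB (chr19:5622788-5623045): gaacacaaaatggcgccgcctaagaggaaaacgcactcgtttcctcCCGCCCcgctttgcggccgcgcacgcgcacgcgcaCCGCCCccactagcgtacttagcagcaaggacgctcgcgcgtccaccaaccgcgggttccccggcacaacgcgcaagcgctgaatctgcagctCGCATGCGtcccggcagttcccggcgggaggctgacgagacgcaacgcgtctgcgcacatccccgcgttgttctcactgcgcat
RPL36AL/MGAT2 (chr14:50087345-50087516): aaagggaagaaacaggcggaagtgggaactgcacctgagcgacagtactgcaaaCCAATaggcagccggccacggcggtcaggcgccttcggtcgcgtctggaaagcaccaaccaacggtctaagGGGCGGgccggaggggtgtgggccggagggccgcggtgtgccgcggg
PKMYT1/PAQR4 (chr16:3019106-3019270): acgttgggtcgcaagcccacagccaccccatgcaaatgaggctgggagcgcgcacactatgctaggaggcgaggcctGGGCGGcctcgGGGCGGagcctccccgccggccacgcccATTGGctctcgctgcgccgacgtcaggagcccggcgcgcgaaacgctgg
H2BC12/H2AC12 (chr6:27114635-27114884): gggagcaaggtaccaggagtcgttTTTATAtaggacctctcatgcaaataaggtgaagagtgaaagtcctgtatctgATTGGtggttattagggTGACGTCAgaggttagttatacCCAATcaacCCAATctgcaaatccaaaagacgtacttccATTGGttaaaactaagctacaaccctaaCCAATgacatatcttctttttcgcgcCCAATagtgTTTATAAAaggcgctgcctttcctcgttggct

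CBX5/HNRNPA1, the widest member, had 1 GC box, 1 CCAAT box and 1 NRF1 core in 59 bp. The NRF1 core was also found once at NUDCD2/HMMR and once at SAFB2/SAFB. NRF1 is a transcription factor of mitochondrial and housekeeping genes. TUBD1/RPS6KB1 held none of the 9 cores in its 100 bp. The histone pair was the only one of the 8 with a TATA box, at 3 places of which a pair overlapped, and it had 6 CCAAT boxes and 1 CRE core at a GC content of 42.4%. The other 7 intervals shown had a GC content of 58.0% to 72.1%. Intervals were also taken, but are not printed, for GYS1/RUVBL2, ACTMAP/SNRPA, CLDN6/TNFRSF12A, POLR2L/TSPAN4, PIGN/RELCH, FUBP1/DNAJB4 and YIPF3/POLR1C. Each of these had a GC box and none had an NRF1 core, so the printed pairs overstate how often that core occurs. Their GC content went from 54.7% at FUBP1/DNAJB4 to 78.0% at POLR2L/TSPAN4. At SAFB2/SAFB and TUBD1/RPS6KB1 the summit of the peak lay inside the printed stretch, and at the other 6 pairs it lay outside it.

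The occupancy of divergent pairs was asked first. The annotation held 1712 divergent coding pairs, and 294 of them (17.2%, interval 15.5 to 19.0) had a member peak within 1 kb of a paired TSS. A peak could serve more than 1 pair, as 25 members (8.59%) did. With a summit within 1 kb of any TSS, 653 of 3238 genes in divergent pairs were occupied (20.2%, 18.8 to 21.6), compared with 1620 of 16938 one-way coding genes (9.56%, 9.13 to 10.0). With only the canonical TSS of each gene, the shares were 15.1% (14 to 16.4) and 7.0% (6.62 to 7.40). The windows of paired genes overlap, so 1 peak could count for both. In windows that start at the canonical TSS and cover the first 500 bp of the gene, 147 of 3228 paired genes (4.55%, 3.89 to 5.33) and 259 of 16666 one-way genes (1.55%, 1.38 to 1.75) had a summit. In the 500 bp upstream the shares were 7.31% (6.46 to 8.26) and 3.62% (3.35 to 3.92). The share of paired genes was also the higher one in these windows of equal size. Gene expression was not measured in these lists, and its part in the difference was not tested.

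Occupancy was higher in pairs whose canonical TSSs lay farther apart. It was 9.09% (5.75 to 14.1) of 187 pairs with TSSs up to 100 bp apart and 14.7% (10.7 to 19.9) of 231 pairs at 101 to 200 bp. It was 18.5% (13.7 to 24.5) of 200 pairs at 201 to 300 bp and 22.6% (17.2 to 29.1) of 186 pairs at 301 to 500 bp. The widest pairs, 501 to 1000 bp apart, reached 26.3% (20.3 to 33.4) of 171. A wide pair offers a larger window, so the share was also taken in a fixed window of 1 kb either side of the midpoint, where the closest pairs had 9.09% and the widest 24.0% (18.2 to 30.9). The intervals of the closest and the widest pairs did not overlap in either count, while those of neighbouring classes did. A further 737 pairs face each other only through other transcripts, and 119 of these (16.1%, 13.7 to 19.0) had a member peak. Peak strength was taken by another distance, that of the TSS pair nearest to the summit, so its order cannot be set against that of occupancy. The median fold enrichment was 4.49 (4.18 to 4.95) for the 56 members whose nearest paired TSSs were up to 100 bp apart and 4.16 (3.90 to 4.41) for the 56 members at 501 to 1000 bp.

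**Figure D1:**
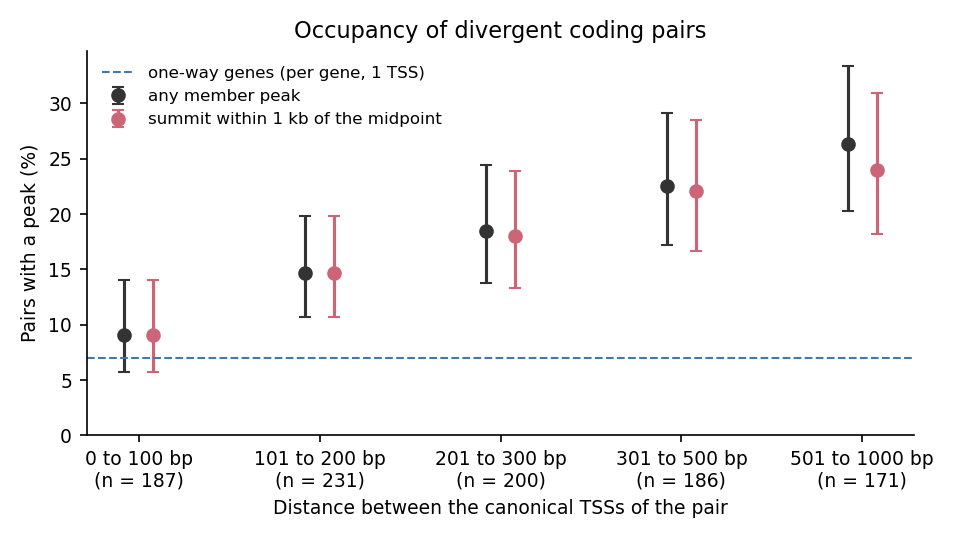
Share of divergent coding pairs with a peak (%, y axis) by the distance between their canonical TSSs (bp, x axis), counted for any member peak (black) and for a summit within 1 kb of the midpoint (red), with 95% Wilson intervals; the dashed line is the share of one-way genes with a summit within 1 kb of the canonical TSS, 7.0%, which counts single genes and not pairs. The share rises from 9.09% in the closest pairs to 26.3% in the widest, or to 24.0% in the fixed window.

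By chromosome, pairs with a peak were most numerous on chromosome 12, with 29 of 102 pairs (28.4%, 20.6 to 37.8), chromosome 17, with 28 of 118 (23.7%), and chromosome 19, with 27 of 142 (19.0%). Chromosome 1, with the most pairs of any chromosome, had 22 of 150 (14.7%, 9.89 to 21.2). Chromosome 13 had no member peak at its 26 pairs, for which the interval reached 12.9%. DLD1 copy number was not measured here, and its part in these shares was not tested.

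The typical member was as strong as the typical peak of the list. Fold enrichment, the ratio of Elongin A signal to the local control background as the authors' peak caller gave it, had a median of 4.32 (4.17 to 4.46) over the members, from 2.59 to 25.7. It was 4.34 (4.31 to 4.40) at one-way promoters and 4.32 (4.31 to 4.34) over the whole list. A fold enrichment of at least 5 was reached by 88 members (30.2%), against 30.1% of the whole list. A fold enrichment of at least 8 was found in 17 members (5.84%, 3.68 to 9.16), in 3.54% (2.82 to 4.45) of one-way promoter peaks and in 2.78% (2.45 to 3.14) of the list. The interval of the members lay above that of the list but overlapped that of one-way promoter peaks. In the top decile of the list were 13.4% (9.96 to 17.8) of members and 11.0% (9.73 to 12.5) of one-way promoter peaks. The median −log10 q-value was 5.10 (4.62 to 5.59) for members and 4.61 for both one-way promoter peaks and the list. In width, 11 members (3.78%) spanned 1 kb or more, against 4.51% of the list, and the median width was 351 bp (329 to 380), compared with 362 bp over the list.

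SUGP2/ARMC6 and MCRS1/PRPF40B carried the strongest members. They ranked 2 and 3 of all 8720 peaks. The SUGP2/ARMC6 peak (chr19:19144333-19144696) had a fold enrichment of 25.7 and a −log10 q-value of 71.3. It was only 364 bp wide, with its summit 41 bp inside ARMC6, and the paired TSSs were 105 bp apart. SUGP2 is a protein of the SURP and G-patch family linked to splicing, and ARMC6 is an armadillo repeat protein. The MCRS1/PRPF40B peak (chr12:49961214-49962507) had a fold enrichment of 25.6 and was 1294 bp wide, with its summit 70 bp inside MCRS1. MCRS1 is a subunit of the NSL and INO80 chromatin complexes, and PRPF40B is a homologue of a yeast splicing factor. No other member was above a fold enrichment of 14.5.

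CBX5/HNRNPA1 carried the widest member by far, at 4756 bp (chr12:54673633-54678388), with a fold enrichment of 14.5 and the highest −log10 q-value of all members, 103. Its summit lay 200 bp inside HNRNPA1, which encodes an abundant splicing regulator. CBX5, on the other side, encodes the heterochromatin protein HP1 alpha. The pair's TSSs were 60 bp apart in the annotation. Fold enrichments above 10 were further found at APBA3/MRPL54 (13.1), where the summit lay 64 bp inside the mitochondrial ribosomal protein gene MRPL54, at GYS1/RUVBL2 (10.6), 102 bp inside the gene of the AAA+ ATPase RUVBL2, and at RPL36AL/MGAT2 (10.1), 109 bp inside the ribosomal protein gene RPL36AL. These 6 pairs were the only ones above that value.

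The other 14 of the 20 strongest members had fold enrichments of 7.41 to 9.16. They included NDUFB11/RBM10 (9.16), in which NDUFB11 encodes a subunit of respiratory complex I and RBM10 a splicing regulator, and SAFB2/SAFB (9.02), in which both genes encode scaffold attachment factors. ACTMAP/SNRPA (8.90) had its summit 83 bp inside SNRPA, the gene of the U1 snRNP protein A. The members at CLDN6/TNFRSF12A (8.87), POLR2L/TSPAN4 (8.85), NUDCD2/HMMR (8.67) and B9D2/TMEM91 (8.61) followed. Lower in this group were PIGN/RELCH (8.53), TUBD1/RPS6KB1 (8.51), NUP62/ATF5 (8.07), JMJD6/METTL23 (8.04), FUBP1/DNAJB4 (7.55), YIPF3/POLR1C (7.49) and PKMYT1/PAQR4 (7.41). By canonical TSSs, CLDN6/TNFRSF12A, B9D2/TMEM91, NUP62/ATF5, FUBP1/DNAJB4 and PKMYT1/PAQR4 did not meet the rule for a divergent pair. TUBD1 encodes delta-tubulin, RPS6KB1 the S6 kinase, NUP62 a nuclear pore protein, POLR1C a subunit of RNA polymerases I and III, and PKMYT1 a kinase that inhibits CDK1. Chromosome 19 held 7 of these 20 peaks, and 5 of the 20 summits lay between the TSSs, 6 inside the minus-strand gene and 9 inside the plus-strand gene.

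The 5 widest members were CBX5/HNRNPA1, H2BC21/H2AC20 (1625 bp), ZBTB4/POLR2A (1607 bp), MCRS1/PRPF40B and SHC1/CKS1B (1246 bp). Their fold enrichments ranged widely. H2BC21/H2AC20, a histone pair, had 4.01, ZBTB4/POLR2A had 7.22 with its summit 123 bp inside ZBTB4, and SHC1/CKS1B had 5.18 with its summit 88 bp inside CKS1B. POLR2A encodes the largest subunit of RNA polymerase II, ZBTB4 a zinc finger protein that binds methylated DNA, and CKS1B a subunit of cyclin-dependent kinases.

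**Figure D2:**
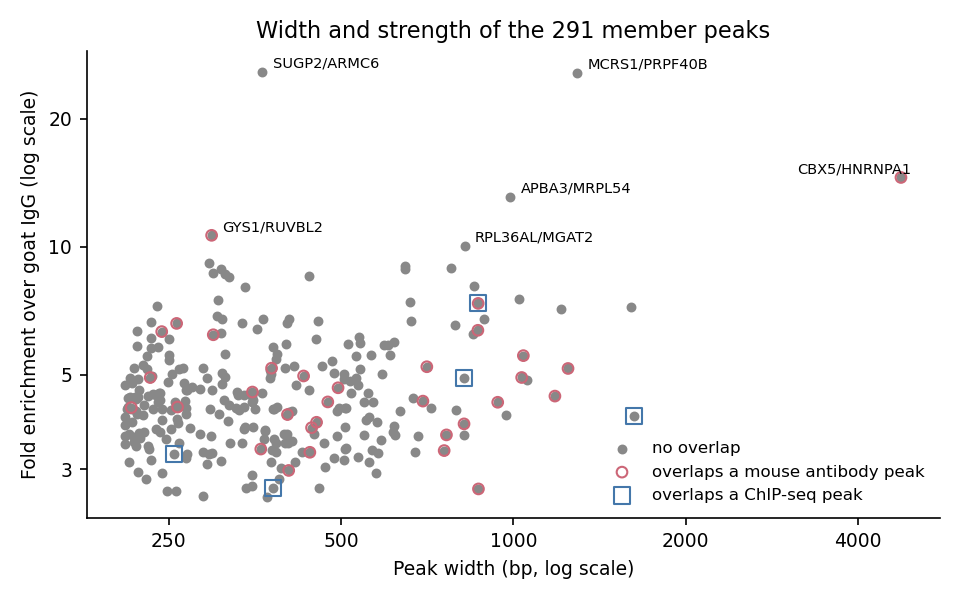
Fold enrichment over the goat IgG background (y axis, log scale) against width in bp (x axis, log scale) for the 291 member peaks, 1 point each, with rings for members that overlapped a mouse antibody peak and squares for those that overlapped a ChIP-seq peak. SUGP2/ARMC6 and MCRS1/PRPF40B stand highest at 25.7 and 25.6, CBX5/HNRNPA1 lies far to the right at 4756 bp, and most members lie below 1 kb and a fold enrichment of 5.

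The position of the summits was then set against the paired TSSs. Most summits lay past one of the TSSs, on the side of its gene, and not in the space between them. The TSS pair taken as nearest was the one with the smallest summed distance to the summit. This choice can prefer a close pair beside the summit to a wider pair around it. It can thus lower the count between the TSSs, and how far it did was not tested. By this choice, 66 summits (22.7%, 18.2 to 27.8) lay between the TSSs, where a summit on a paired TSS was counted as between. A further 110 (37.8%) lay past the TSS of the minus-strand gene and 115 (39.5%) past that of the plus-strand gene. Of these 225 summits 222 lay within the gene itself, and 3 lay beyond its end, at H2BC12/H2AC12, H2AC17/H2BC17 and AC110771.1/CYP4V2. Of the 225, 78 (34.7%, 28.8 to 41.1) were 1 to 100 bp past its TSS and 63 (28.0%, 22.5 to 34.2) were 101 to 200 bp past it, while 14 (6.22%) were at 201 to 300 bp, 24 (10.7%) at 301 to 500 bp and 46 (20.4%) at 501 to 1000 bp. The median distance past the TSS was 130 bp (113 to 174) on the minus-strand side and 148 bp (114 to 200) on the plus-strand side, which did not differ beyond their intervals. The summit was on the side of the shorter gene in 129 of the 225 (57.3%, 50.8 to 63.6). The median fold enrichment was 4.31 (4.04 to 4.56) between the TSSs, 4.17 (3.76 to 4.49) on the minus-strand side and 4.46 (4.19 to 4.89) on the plus-strand side, with overlapping intervals.

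The space between the TSSs sets how often a summit can fall in it. The share between them was 5.36% of the 56 members whose nearest paired TSSs were up to 100 bp apart, 10.8% of 74 at 101 to 200 bp, 19.6% of 56 at 201 to 300 bp, 36.7% of 49 at 301 to 500 bp and 46.4% (34.0 to 59.3) of 56 at 501 to 1000 bp. Around the midpoint of the TSSs the 100 bp with the most summits lay to its left. There were 42 summits 100 to 200 bp to the left of the midpoint, 23 in the 100 bp left of it, 34 in the 100 bp right of it, 31 at 100 to 200 bp to the right and 29 at 200 to 300 bp. With the canonical transcript of each gene alone, 33.7% of 172 summits lay between the TSSs, so that the size of this share depended on the transcripts used, but in both counts most summits lay past a TSS.

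**Figure D3:**
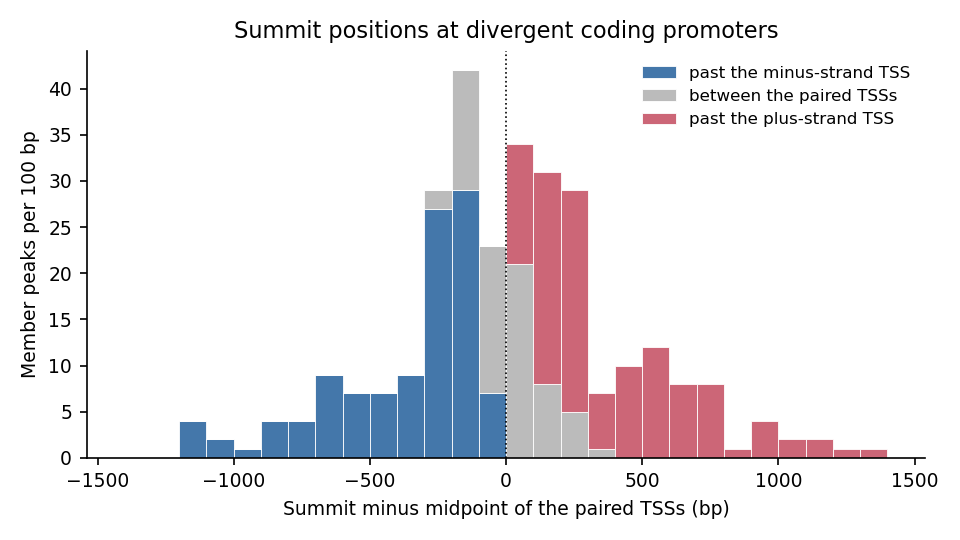
Number of member summits per 100 bp (y axis) by distance from the midpoint of the nearest paired TSSs (bp, x axis), stacked by place past the minus-strand TSS (blue), between the TSSs (grey) or past the plus-strand TSS (red). The tallest bar is the 42 summits 100 to 200 bp left of the midpoint, and the 23 summits just left of the midpoint are fewer than in the bar on either side of them.

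Relative to the nearest coding TSS, fewer of the members than of the one-way promoter peaks lay upstream. Among summits within 500 bp of it, 80 of 260 members (30.8%, 25.5 to 36.6) were upstream, compared with 868 of 1502 one-way promoter peaks (57.8%, 55.3 to 60.3). Within 200 bp the shares were 29.7% (23.9 to 36.2) and 44.1% (40.6 to 47.6). At a divergent promoter, sequence upstream of one TSS soon becomes the inside of the partner gene, so a summit there counts as downstream of the partner. Leaving the members out changed the upstream share over all coding promoters within 500 bp from 53.8% (51.5 to 56.1) to 57.8%. In the annotation, 169 member summits (58.1%, 52.3 to 63.6) lay in an exon of a protein-coding gene, 101 (34.7%) in an intron and 21 (7.22%) outside protein-coding genes. For one-way promoter peaks these shares were 30.7%, 42.4% and 26.9%. By the rule, coding genes start on both sides of a divergent promoter, which leaves less DNA outside coding genes there. The difference in these shares is therefore in part set by how the groups were defined.

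More than 1 member peak was found at 22 of the 294 occupied pairs (7.48%, 4.99 to 11.1). Overlapping annotations count some peaks again, and the 22 pairs held 20 distinct sets of peaks. POLR2L/TSPAN4 had 1 peak in each gene, with a fold enrichment of 3.47 at 264 bp inside POLR2L, which encodes a small subunit shared by the nuclear RNA polymerases, and 8.85 at 794 bp inside TSPAN4. PKMYT1/PAQR4 also had a summit in each gene, at 7.41 and 4.37, 2043 bp apart. At H2BC12/H2AC12 the peaks had 7.13 at 589 bp past the H2BC12 TSS, beyond the end of that 495 bp gene, and 3.29 inside H2AC12. YIPF3/POLR1C had a peak of 4.67 between the TSSs and one of 7.49 inside POLR1C. Both peaks of NKIRAS1/RPL15 lay inside RPL15, at 40 bp (6.76) and 644 bp (3.77) past the nearest paired TSS. Summits of the same pair were a median of 1154 bp apart over the 22 pairs.

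Beyond the promoters, a further peak inside the gene and over 1 kb from any coding TSS was found in 31 of the 222 genes past whose TSS a member summit lay (14%, 10.0 to 19.1). The share was 11.0% (8.67 to 13.8) of all 564 genes of occupied pairs and 10.4% (9.26 to 11.6) of the 2674 genes in pairs without a peak. Among one-way genes it was 24.4% (22.4 to 26.6) with a peak within 1 kb of any TSS and 10.3% without one. For one-way genes with a peak within 1 kb of the canonical TSS it was 19.2% (17.0 to 21.6). Median gene lengths were 20.4 kb, 22.9 kb, 28.7 kb, 30.2 kb, 26.6 kb and 25.6 kb in that order, and the part of gene length was not tested.

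Gene classes were defined by symbol, and a pair was counted when either of its genes belonged to the class. Histone, cytosolic ribosomal protein and splicing factor pairs were occupied above the 17.2% of all pairs. Of 12 pairs of clustered histone genes, 8 had a member peak (66.7%, 39.1 to 86.2), of 22 pairs with a cytosolic ribosomal protein gene 13 (59.1%, 38.7 to 76.7), and of 29 pairs with a splicing factor gene 12 (41.4%, 25.5 to 59.3). Each of these lower bounds was above 17.2%. The other 10 classes had intervals that took in 17.2%. These were 8 of 39 pairs for DNA replication and repair (20.5%, 10.8 to 35.5), 9 of 48 for the transcription machinery (18.8%, 10.2 to 31.9), 9 of 60 for ZNF zinc finger genes (15%, 8.10 to 26.1), 5 of 38 for the respiratory chain (13.2%, 5.75 to 27.3) and lower counts in the remaining classes. Classes share pairs with each other, and each count covers few promoters.

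**Figure D4:**
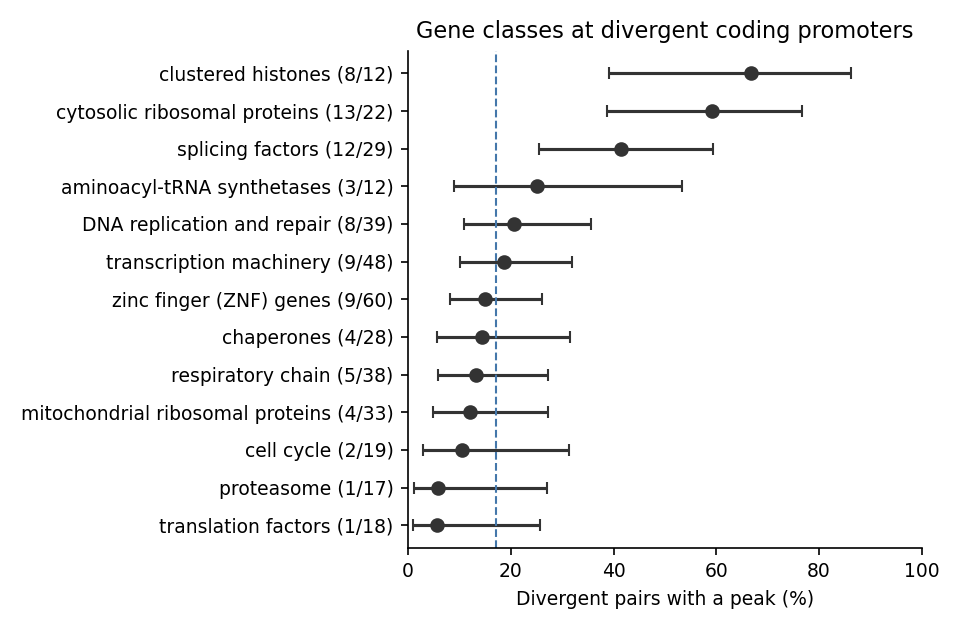
Share of divergent pairs with a member peak (%, x axis) for each gene class (y axis, with pairs with a peak and all pairs in brackets), as points with 95% Wilson intervals; the dashed line is the 17.2% of all divergent pairs. Clustered histones (66.7%), cytosolic ribosomal proteins (59.1%) and splicing factors (41.4%) have intervals above the line.

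The ribosomal protein pairs had 15 member peaks with a median fold enrichment of 4.89, led by RPL36AL/MGAT2 (10.1), NKIRAS1/RPL15 (6.76) and RPL35/ARPC5L (6.32). The summit was inside the ribosomal protein gene in 6, inside the partner in 5 and between the TSSs in 4. At RPL35/ARPC5L it lay 115 bp inside ARPC5L, the gene of an actin-nucleating Arp2/3 subunit, and at RPL36AL/MGAT2 inside RPL36AL, so the peaks did not keep to one side. At RPS29/LRR1 the 32 bp at the summit occurred more than once in the genome, so that peak is uncertain.

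The histone pairs had 10 member peaks with a median fold enrichment of 3.77, below that of all members. H2BC12/H2AC12 (7.13), H2BC13/H2AC13 (4.17) and H2BC21/H2AC20 (4.01) were the strongest. In 9 of the 10 the summit lay past a TSS of a histone gene, 7 of them within that gene, while the stronger peak at H2BC12/H2AC12 and 1 peak at H2AC17/H2BC17 lay beyond the end of the gene. Both genes of these pairs are short, intronless histone genes of nearly identical families, and at H2BC21/H2AC20 and at 1 of the peaks of H3C7/H2BC9 the 32 bp at the summit occurred 3 and 2 times in the genome, so those peaks are uncertain. The pairs H2AC17/H2BC17 and H3C12/H2BC17 share both of their peaks.

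The splicing factor pairs had 11 member peaks, with MCRS1/PRPF40B, CBX5/HNRNPA1 and ACTMAP/SNRPA the strongest, and with 7 summits inside the splicing factor gene, 3 inside the partner and 1 between. The median of these peaks, 3.98, was below that of all members in spite of the leading ones. Read-through genes enter as pairs of their own, and HNRNPUL2/TTC9C and HNRNPUL2-BSCL2/TTC9C count the same peak (3.98).

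Among the other classes, the transcription machinery was led by POLR2L/TSPAN4 (8.85), YIPF3/POLR1C (7.49) and ZBTB4/POLR2A (7.22). Of its 9 peaks, 6 had the summit inside the gene of the class. The respiratory chain was led by NDUFB11/RBM10 (9.16), NDUFC1/NAA15 (5.90) and COX11/STXBP4 (4.49), and the DNA replication and repair class by VPS35/ORC6 (6.61), PRKDC/MCM4 (6.21) and ORC4/MBD5 (4.60), in which ORC6, MCM4 and ORC4 encode proteins of replication origins. The ZNF class was led by C17orf75/ZNF207 (5.81), ELOF1/ZNF627 (5.03) and ZNF571/ZNF540 (4.97). ELOF1 is itself a transcription elongation factor.

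In the smaller counts, the mitochondrial ribosomal protein pairs had 4 occupied of 33 (12.1%, 4.82 to 27.3), which were APBA3/MRPL54 (13.1), HELQ/MRPS18C (5.02), PPP1R10/MRPS18B (4.04) and MRPL51/NCAPD2 (3.04). Chaperone pairs had 4 of 28 (14.3%), FUBP1/DNAJB4 (7.55), APTX/DNAJA1 (4.32), CASP9/DNAJC16 (4.18) and DNAJC7/NKIRAS2 (2.92). Aminoacyl-tRNA synthetase pairs had 3 of 12 (25%, 8.89 to 53.2), AARS1/DDX19B (5.83), HARS1/HARS2 (5.61) and EARS2/UBFD1 (3.63). At AARS1/DDX19B the 32 bp at the summit occurred 388 times in the genome, so that peak is uncertain. Cell cycle pairs had 2 of 19 (10.5%), ANAPC10/ABCE1 (5.90) and UFD1/CDC45 (3.90). Translation factor pairs had 1 of 18 (5.56%), ATP6V1D/EIF2S1 (4.95), and proteasome pairs 1 of 17 (5.88%), PSMB1/TBP (4.31).

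Among 11 well-known divergent pairs, 2 had a member peak (18.2%), a share close to the 17.2% of all pairs. TK1/AFMID, which holds the gene of thymidine kinase 1, had a fold enrichment of 6.77, with the summit 14 bp inside AFMID. HARS1/HARS2, the cytosolic and mitochondrial histidyl-tRNA synthetases, had 5.61, with the summit 30 bp inside HARS2. The other 9, among them the chaperonin pair HSPD1/HSPE1, the purine synthesis pair PPAT/PAICS, SURF1/SURF2, MRPS12/SARS2, RANBP1/TRMT2A and the collagen pair COL4A1/COL4A2, met the rule for a divergent pair but had no peak in the list. A missing peak says only that none passed the authors' threshold at this unknown depth.

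The mouse antibody and ChIP-seq lists were compared with the members at an overlap of at least 1 bp. A mouse antibody peak overlapped 32 members (11.0%, 7.90 to 15.1), against 8.33% of the whole goat antibody list and 9.03% (7.85 to 10.4) of one-way promoter peaks, and these intervals overlap. The 32 had goat antibody fold enrichments of 2.70 to 14.5 and mouse antibody fold enrichments of 2.88 to 5.52, and were wider than the rest, with a median of 464 bp (378 to 820) compared with 340 bp (313 to 368) in the other 259. By goat antibody strength they were led by CBX5/HNRNPA1 (mouse antibody 4.71), GYS1/RUVBL2 (4.85) and HCFC1R1/THOC6 (5.02). The 2 strongest members, SUGP2/ARMC6 and MCRS1/PRPF40B, had no overlapping mouse antibody or ChIP-seq peak.

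ChIP-seq peaks overlapped 5 members (1.72%, 0.736 to 3.96), against 0.837% of the whole list. HCFC1R1/THOC6 was the only member found in all 3 lists, with fold enrichments of 7.36 by goat antibody, 5.02 by mouse antibody and 5.05 by ChIP-seq. THOC6 encodes a subunit of the THO complex, which couples transcription to RNA export. The goat antibody peak (chr16:3073396-3074263) had its summit on the paired TSS of HCFC1R1, which was counted as between the TSSs. The other 4 were CCDC59/METTL25 (goat antibody 4.91, ChIP-seq 17.8), H2BC21/H2AC20 (4.01 and 5.85), PSD/FBXL15 (3.26 and 9.38) and AURKA/CSTF1 (2.72 and 11.7). Fold enrichments of different lists rest on different controls and are not on one scale.

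The same rule was applied to the other lists. It found 106 of 2338 mouse antibody peaks (4.53%, 3.76 to 5.45), at 113 pairs, and 15 of 186 ChIP-seq peaks (8.06%, 4.95 to 12.9), at 15 pairs. Of the 113 mouse antibody pairs 47 also had a goat antibody peak, which is 41.6% of the mouse antibody pairs, against 17.2% of all pairs with a goat antibody peak, and 16.0% of the 294 goat antibody pairs, against 6.60% of all pairs with a mouse antibody peak. Of the 15 ChIP-seq pairs 7 had a goat antibody peak (46.7%). They were 2.38% of the 294, against 0.876% of all pairs with a ChIP-seq peak. YARS1/S100PBP (chr1:33282773-33283203) had a ChIP-seq fold enrichment of 31.6, rank 3 in that list, and no overlapping goat antibody peak. YARS1 encodes the tyrosyl-tRNA synthetase.

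The DNA around the member summits was richer in GC and CpG than around other summits of the list. In the 300 bp around the summit the median GC content was 56.3% (55.3 to 57.7) for members, 52.3% (51.7 to 53.0) for one-way promoter peaks and 44.3% for the list. The observed over expected CpG ratio was 0.719 (0.685 to 0.752), 0.534 (0.511 to 0.556) and 0.242. Around the canonical TSS of 19881 coding genes the medians were 66.0% and 0.800, so the summits lay in less GC-rich DNA than TSSs do. Members also lay closer to TSSs than one-way promoter peaks did. By the rule, members have TSSs of at least 2 coding genes close together, so this is in part set by how the groups were defined. Leaving out summits on a TSS, 209 of the 291 members had their nearest coding TSS within 200 bp, against 783 of the 2004 one-way promoter peaks. The groups were not matched for this distance, and its part in the values of GC, CpG and motifs was not tested. A GC box was found around 132 member summits (45.4%, 39.7 to 51.1), 29.7% of one-way promoter summits, 12.6% of the list and 61.5% of coding TSSs. The ETS core was found around 11.0%, 6.49%, 2.58% and 13.5% in the same order, and the NRF1 core around 4.47% (2.63 to 7.49), 1.65%, 0.631% and 2.53%. The TATA box was found around 8.59% (5.89 to 12.4), 14.7%, 22.6% and 8.05%, and the E-box around 8.93%, 5.09%, 3.96% and 7.67%. The CCAAT box was found at 40.5%, 35.1%, 34.9% and 32.7%, and the ZNF143 core at 4.81%, 3.09%, 3.41% and 2.58%. The YY1 and CRE cores were found around no more than 2.06% of member summits and 3.02% of coding TSSs.

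The same cores were counted at the centres of divergent pairs with and without a peak. In the 300 bp around the midpoint of the canonical TSSs, 70.3% (63.1 to 76.6) of 175 pairs with a peak and 73.1% (69.9 to 76.1) of 800 pairs without one held a GC box. The ETS core was in 28.0% (21.9 to 35.1) and 31.5% (28.4 to 34.8), the CCAAT box in 44% and 40.6%, and the NRF1 core in 8.0% (4.83 to 13.0) and 5.50% (4.12 to 7.30). Their intervals overlapped. The TATA box was in 14 pairs with a peak (8.0%, 4.83 to 13.0) and 29 without (3.63%, 2.54 to 5.16), with intervals that overlapped only narrowly. This was the widest gap in proportion among these cores. It rests on few pairs, and the part in it of histone pairs such as H2BC12/H2AC12 was not tested. The median GC content of the centres was 60.7% with a peak and 64.7% without. Pairs with a peak tended to have canonical TSSs farther apart, and the groups were not matched for this distance. Where the TSSs lie over 300 bp apart, the window at the midpoint holds neither of them. The part of this distance in the values of GC and motifs was not tested. A match to a core is a description of the letters and says nothing of a bound factor.

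**Figure D5:**
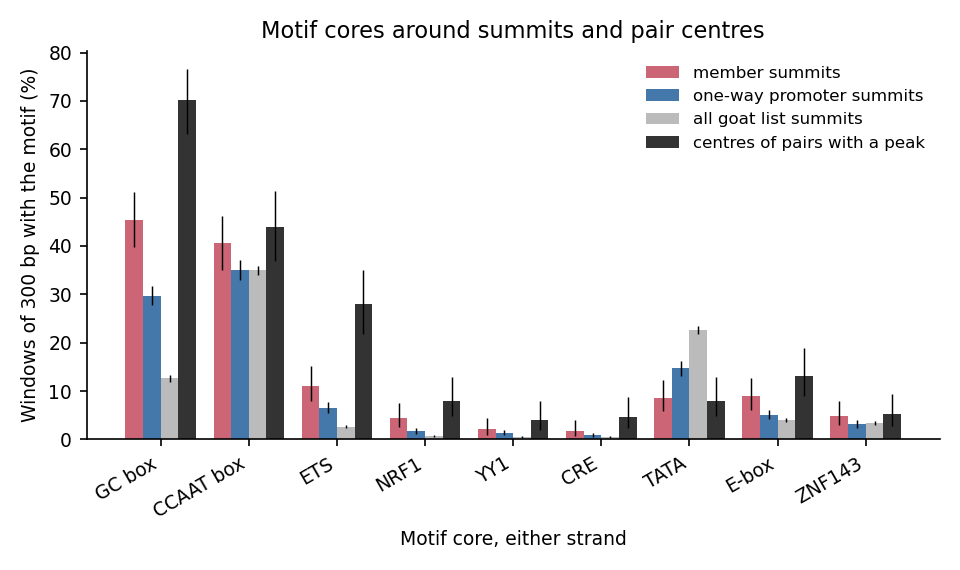
Share of 300 bp windows that hold each motif core on either strand (%, y axis) around member summits (red), one-way promoter summits (blue), all summits of the goat antibody list (grey) and the centres of pairs with a peak (black), with 95% Wilson intervals. The GC box stands at 45.4%, 29.7%, 12.6% and 70.3% in that order, and the TATA box is most frequent over the whole list at 22.6%.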

How the data were processed

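Elongin A was mapped by CUT&RUN and ChIP-seq, as 3 peak lists. By their methods, the authors used Bowtie2 v2.3.4.1 for alignment to hg19, Picard v1.88 against PCR duplicates and MACS2 v2.1.1 to call peaks over IgG or input. The sources used here do not say whether the 2 goat antibody replicates were pooled, and the mouse antibody is known only from the labels. For each peak the authors deposited its fold enrichment, which is the ratio of signal to local background in the control, and a −log10 q-value, of which the lowest among members was 1.30. Their p-values were not used. The deposited score was also left out. The RNA-seq, 4sU-seq and RNA polymerase II experiments were not analysed here.

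TSSs of all transcripts of protein-coding genes came from GENCODE release 44 on GRCh37, the hg19 build. Summits were placed within 1000 bp of TSSs, and each member took the TSS pair with the smallest summed distance. Where a gene is given 1 TSS, it is that of the canonical transcript. Shares carry Wilson intervals and medians carry binomial order-statistic intervals. No test was run, because peaks of 1 list are not replicates. Copies of the 32 bp at each summit were counted on both strands. The analysis used Python 3.11.15 (matplotlib 3.10.9, pysam 0.24.0, pandas 2.3.3, scipy 1.17.1, numpy 2.4.6) and samtools 1.23.1. On simulated data, 200 of 200 summits planted near paired TSSs were found, which checks only that the search ran as written. On real peaks of the goat antibody list, a direct search put 359 of 359 in the same class. The 726 overlaps of the whole list were also found by bedtools 2.31.1.

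Members and lists were chosen with earlier results of these data known. The pairs named are those of the 20 members with the highest fold enrichment, members in all lists, the 5 widest, the 3 strongest of each gene class, the 5 strongest with more than 1 peak, and 11 fixed pairs. Other pairs were named after their values were seen, where a count was small or a list led by them, as were the 4 other members that overlapped ChIP-seq peaks. The alternatives tried were other transcript sets, windows, peak thresholds and overlaps.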

Additional observations from a re-analysis of the deposited data

How the results depend on the processing

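The alternatives covered 9 results, and the values by TSS distance, chromosome, gene class and motif were not recomputed. None of the 9 turned to the opposite direction under them, but a 200 bp window for the upstream share was not among them. With it the direction did turn. The upstream share of one-way summits was 57.8% within 500 bp and 44.1% (40.6 to 47.6) within 200 bp, where more summits lay downstream than upstream. Of 111 recomputed values, 81 stayed within the counting interval of the value given (or, for the count of members, within 1.5 times it), and 30 moved. The cause of the moves was not tested. The share of summits between the TSSs moved both ways between the sets of transcripts.

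By protein_coding transcripts, 8.68% of one-way genes had a promoter peak and 60.6% of one-way summits were upstream. By transcripts tagged basic, members were 2.63% of the list, and these shares were 8.26% and 62.7%. By the 5-prime end of each gene, there were 149 members (1.71% of the list), 12.8% of summits between the TSSs, 7.13% of one-way genes with a peak and 61.0% of one-way summits upstream. By canonical transcripts, an alternative chosen after seeing the data, there were 172 members (1.97%), 33.7% between, 7.39% and 67.4%. With summits within 500 bp, members were 2.81% of the list, 14.8% of pairs and 7.58% of one-way genes were occupied. With paired TSSs within 500 bp members were 2.96% of the list and 15.5% lay between, and within 300 bp 2.71% and 9.32%. By peak centre, 61.9% of one-way positions were upstream. At q-values under 0.01, 8.61% of one-way genes were occupied, and under 0.001 14% of pairs and 7.23% of one-way genes, with a median member fold enrichment of 4.54. At a fold enrichment of at least 5, there were 88 members, 5.55% of pairs and 3.19% of one-way genes.

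No paired analysis was possible because the goat antibody list is a single set of peaks, and no replicate could be left out either. Overlap with the mouse antibody list ranged from 10.3% to 13.4% and with the ChIP-seq list from 1.03% to 2.33%. Depth is unknown, so a pair without a peak cannot be called unbound.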

Other observations

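At 6 members (2.06%) the 32 bp at the summit occurred more than once in the genome, compared with 3.18% over the whole list. These were AARS1/DDX19B with 388 copies, DDX54/RITA1 with 115, RPS29/LRR1 with 8, H2BC21/H2AC20 with 3, and SHC1/CKS1B and H3C7/H2BC9 with 2 each.

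A small RNA gene lay within 1 kb of the summit at 6 members. They were C17orf75/ZNF207 with MIR632, SHC1/CKS1B with MIR4258, RPS25/TRAPPC4 with MIR3656, GDF5/CEP250 with MIR1289-1, ENSG00000255432/CSKMT with SNORA57, and H2BC12/H2AC12 with MIR3143. A TSS of a long noncoding RNA lay within 1 kb of 17 members (5.84%, 3.68 to 9.16), compared with 19.4% (17.7 to 21.2) of one-way promoter peaks and 9.14% of the list. By the rule, members have a coding TSS upstream on the opposite strand and one-way promoter peaks do not. These shares are thus not independent of how the groups were defined.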
